A study of Bubalus bubalis with 36 samples.

Results

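Sternum subcutaneous adipose tissue (SSAT) was compared with omental adipose tissue (OAT) within 6 river buffaloes (3 males, 3 females) that were slaughtered at an age of 19 to 21 months. These were 12 of the 36 RNA-seq libraries of the series, 6 from SSAT and 6 from OAT, chosen by the column names of the expression table and paired by the animal number in them. The other 24 libraries came from back (BSAT), inguinal (IAT), pericardial (PCAT) and perirenal (PRAT) fat of the same 6 animals. Animals 1 to 3 were the males and animals 4 to 6 the females. The sample labels give the males as Murrah and the females as Nili-Ravi, whereas the sample table of the study gives all 6 as Murrah, so sex and labelled breed cannot be told apart. Males and females were also raised separately in later life, which cannot be told apart from sex either. The labels describe weaning, a fattening period and slaughter alike for all animals, no treatment is named, and each animal contributed 1 bulk piece of each depot.

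Subcutaneous fat lies under the skin of the trunk and limbs, whereas omental fat hangs from the stomach inside the abdominal cavity and is covered by mesothelium, a sheet of flat epithelial cells. Both store triglycerides in adipocytes, which sit in a bed of fibroblast-like progenitors, vessels, matrix and immune cells. Cells of connective tissue keep a record of where in the embryo they arose in their T-box, HOX and other homeobox transcription factors, and in mice and humans such genes separate fat depots. The omentum in addition carries lymphoid clusters known as milky spots.

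Expression was given as FPKM, fragments per kilobase of gene scaled to the mapped fragments of its library, for 23032 gene models, of which 17583 had a mean above 0.1 FPKM over the 12 libraries and were tested. Summed markers were used to check the labels of the libraries. The 24 adipocyte identity genes summed to 3072 to 7406 FPKM in the 6 SSAT libraries, against 10550 to 16640 FPKM in OAT of animals 2, 3, 5 and 6. OAT of animals 1 and 4 stood apart, with adipocyte sums of 637.3 and 1105 FPKM. T cell markers summed to 47.2 to 119.8 FPKM in SSAT, against 1608 FPKM in OAT 1, 3504 FPKM in OAT 4 and 67.04 to 305.4 FPKM in the other 4 OAT libraries. B cell and plasma cell markers summed to 131.2 to 223.6 FPKM in SSAT, against 3406 FPKM in OAT 1, 1671 FPKM in OAT 4 and 184.9 to 455.1 FPKM in the other 4. Mesothelial markers summed to 2014 FPKM in OAT 1 and to 275.6 to 510.3 FPKM in the other 11 libraries, including all SSAT ones. Thus OAT 1 and OAT 4 held more lymphoid and less adipocyte transcript than the other 10 libraries. In bulk tissue, fewer cells of a type and less RNA per cell cannot be told apart. Results are therefore also given without animals 1 and 4 (4 pairs), and from a fit of 34 libraries that left out only OAT 1 and OAT 4 and kept all other depots. That fit kept other libraries rich in lymphoid transcript. In PRAT 4 and IAT 4, T cell markers summed to 1319 and 1043 FPKM and B cell and plasma cell markers to 2025 and 1276 FPKM. In PRAT of animals 2, 3, 5 and 6 the highest of these sums were 1683 and 3280 FPKM. PRAT 2 held the T cell gene CD3D at 501.4 FPKM and the B cell gene PAX5 at 343.1 FPKM. Lymphoid-rich libraries were thus not confined to animals 1 and 4. The adipocyte sum of PRAT 4 was 647.1 FPKM.

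**Figure D1:**
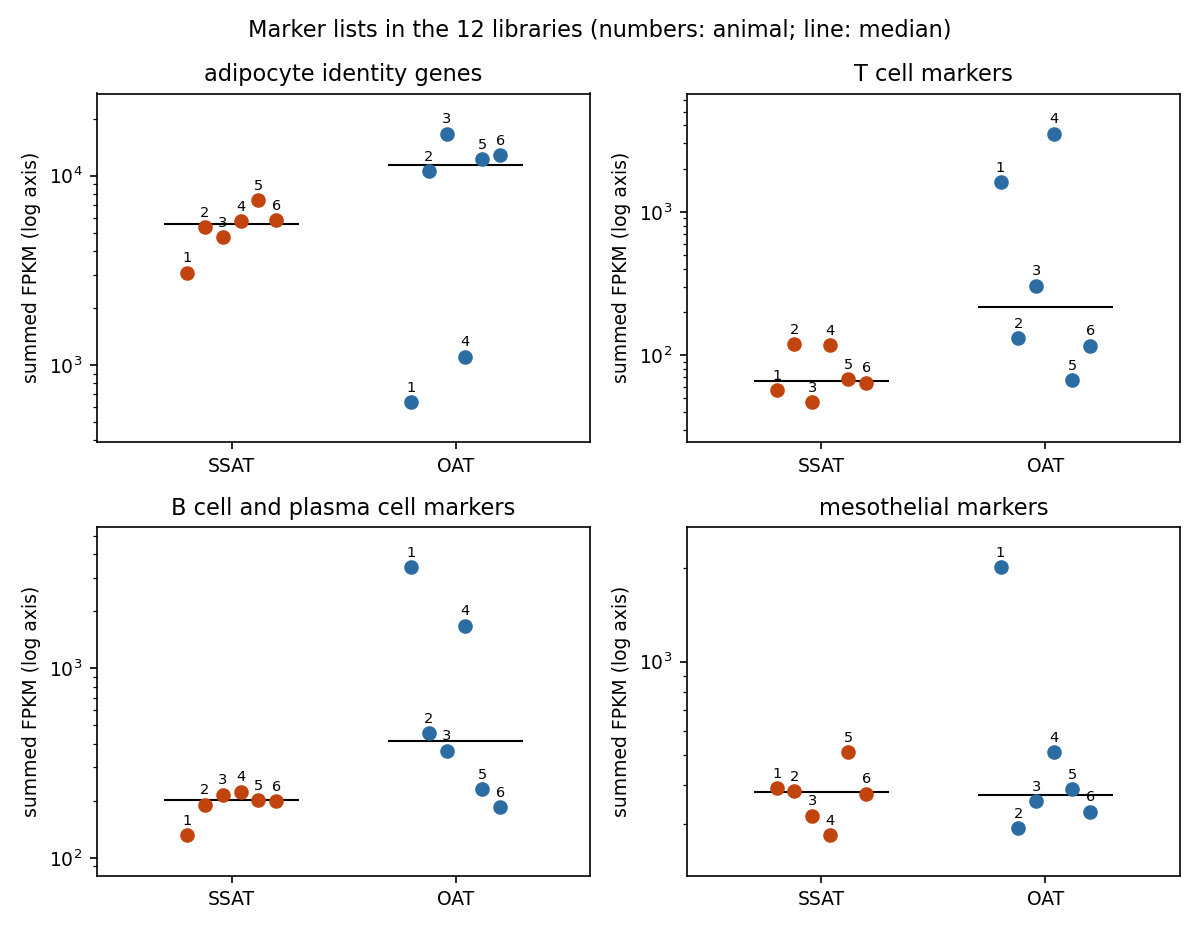
Summed FPKM of marker lists (log axis) in each library of SSAT (left) and OAT (right), with 1 point per animal. OAT of animals 1 and 4 lie above all other OAT libraries for T cell and B cell markers and below them for adipocyte identity genes.

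Across the genome, 93 gene models were higher in SSAT (0.529% of those tested) and 50 were lower (0.284%) in the paired comparison (limma, Benjamini-Hochberg adjusted p under 0.05, 6 pairs). All 143 had the same sign in all 6 animals, 137 changed by at least 1 on the log2 scale, and in 105 the libraries of the depots did not overlap; over all gene models tested, 812 (4.62%) did not overlap. At an unadjusted p under 0.05 there were 4197. The median log2 fold change of all gene models was -0.16, so the typical gene model read slightly lower in SSAT, with 6262 positive and 11321 negative values. After quantile normalization, which brought this median to -0.0017, 105 rose and 34 fell, so that the share of rises moved to 75.5%, against 65.0% as measured. Fold changes are SSAT over OAT on the log2(FPKM + 0.1) scale, which understates the change of genes at low levels.

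The count depended on the libraries in the fit. In the 4 pairs without animals 1 and 4, 56 gene models were higher in SSAT (0.318%) and 92 lower (0.523%), and 53 of the 143 were among them. The sign of the 143 could not change there, since each had the same sign in all 6 animals. A fit of all 36 libraries called 1146 higher (6.52%) and 2725 lower (15.5%), including 142 of the 143 in the same direction. In the fit of 34 libraries there were 388 higher (2.21%) and 849 lower (4.83%), and 122 of the 143 were called. Leaving out a single animal gave 62 higher and 38 lower without animal 1, 30 and 9 without animal 2, 12 and 4 without animal 3, 17 and 14 without animal 4, 16 and 9 without animal 5, and 15 and 9 without animal 6.

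**Figure D2:**
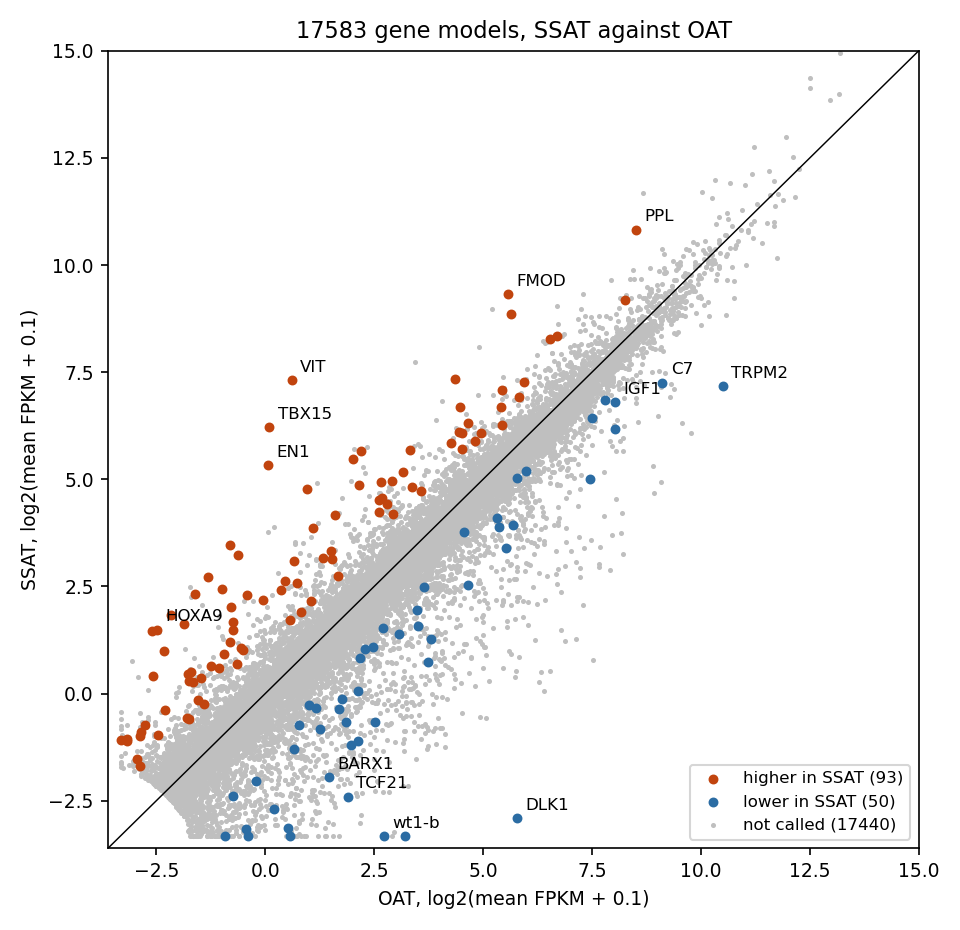
Mean FPKM on the log2(FPKM + 0.1) scale in SSAT (vertical axis) against OAT (horizontal axis), 1 point per gene model tested, with the 93 called higher and the 50 called lower in SSAT coloured. Called gene models lie on both sides of the diagonal, with DLK1 and wt1-b at the lower edge for SSAT and VIT, TBX15 and EN1 farthest above it, and uncalled gene models lie beside many of them.

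Transcription factors of limb, body wall and trunk position were among the genes higher in SSAT. Of 30 tested, 8 were higher in SSAT (5 without animals 1 and 4) and none was lower, the other 22 did not pass, and the median log2 fold change was 1.56, against -0.16 over all gene models. For this and each later list, the shares called over all gene models were 0.529% higher and 0.284% lower. Without animals 1 and 4 these shares were 0.318% and 0.523%. TBX15, a T-box factor that shapes the skeleton and skin of the mouse trunk, ran from 53.4 to 126 FPKM in SSAT (median 67.1) and from 0.296 to 2.35 FPKM in OAT (median 0.889). EN1, the engrailed homeobox factor of the trunk dermis and ventral limb, ran from 31.9 to 46.3 FPKM in SSAT (median 41.2) and from 0.128 to 2.91 FPKM in OAT (median 0.70). Every SSAT library exceeded every OAT library for both genes. The log2 fold change was 6.30 ± 0.46 for TBX15 (SE, n = 6 pairs, limma adjusted p = 0.00561) and 5.83 ± 0.45 for EN1 (limma adjusted p = 0.00605), higher in SSAT in 6 of 6 animals.

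The T-box factors of the limb buds were both higher in SSAT. TBX4, known for the hindlimb, ran from 1.24 to 22.3 FPKM in SSAT (median 10.5) and from 0 to 0.866 FPKM in OAT (median 0.558), a log2 fold change of 4.36 ± 0.54 (limma adjusted p = 0.0239). TBX5, known for the forelimb and heart, ran from 4.18 to 7.55 FPKM in SSAT (median 5.03) and from 0 to 1.07 FPKM in OAT (median 0.35), a log2 fold change of 4.00 ± 0.51 (limma adjusted p = 0.0292). Neither gene overlapped between depots; without animals 1 and 4 their log2 fold changes were 4.29 and 3.51, with limma adjusted p of 0.0653 and 0.0657. PRRX2, a homeobox factor of mesenchyme, rose by 1.90 on the log2 scale, and TWIST1, a mesenchymal basic helix-loop-helix factor named here after its value was seen, by 1.87. PRRX1, a close relative of PRRX2, had a median of 64.2 FPKM in SSAT and 14.1 FPKM in OAT with no overlap but did not pass (limma adjusted p = 0.0514).

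**Figure D3:**
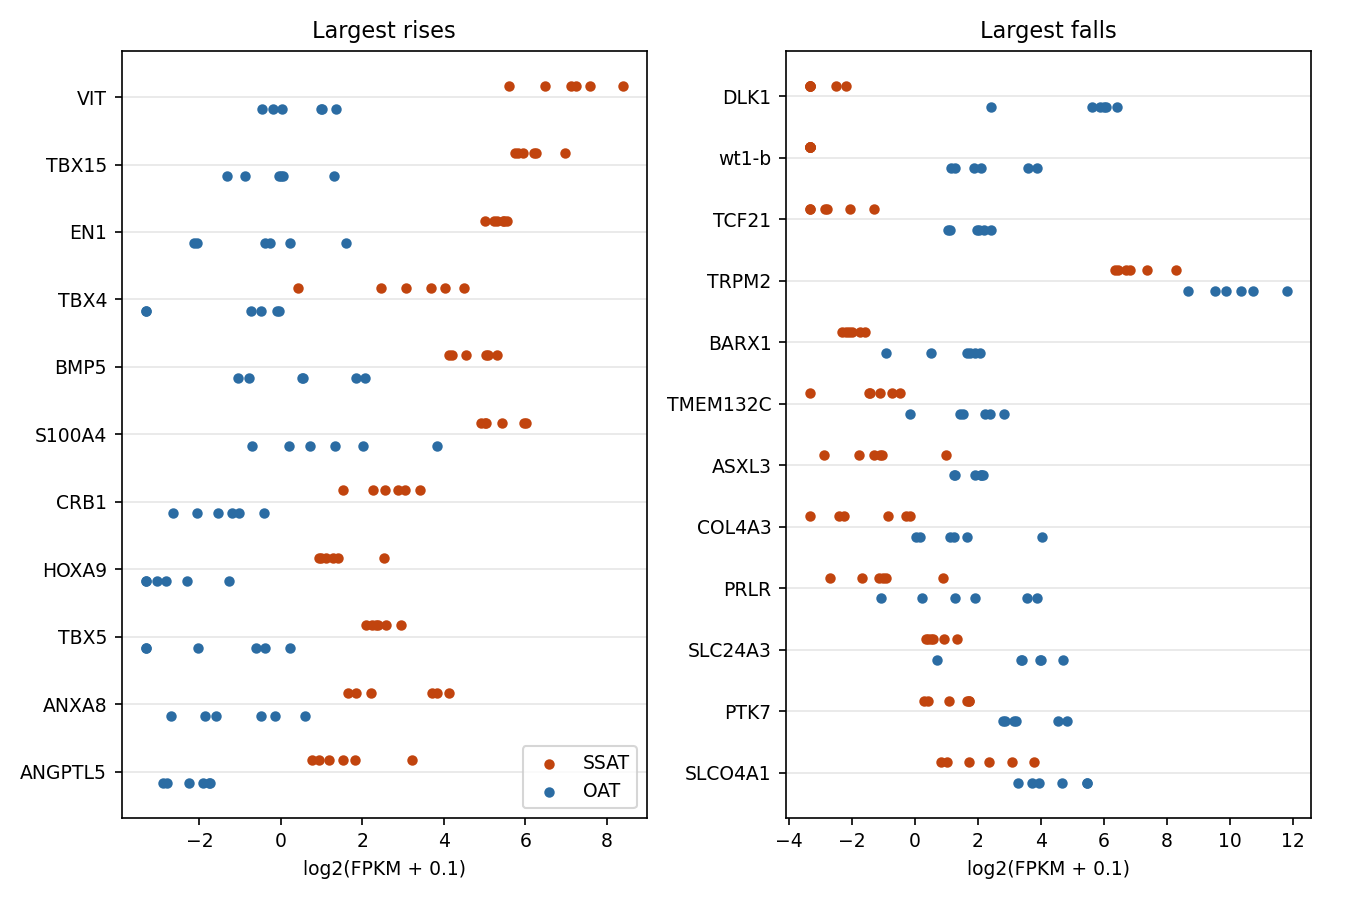
Expression on the log2(FPKM + 0.1) scale (horizontal axis) of 11 of the 12 largest rises (left panel) and the 12 largest falls (right panel) in every library, with SSAT points drawn above OAT points for each gene. SSAT and OAT points of the 11 rises are separate, while PRLR, SLC24A3 and SLCO4A1 among the falls overlap.

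HOX genes, the clustered homeobox genes that mark position along the trunk, were mostly positive. Of the 22 tested, 21 had a positive log2 fold change, 3 were called higher in SSAT and none lower; without animals 1 and 4, 16 were positive and 4 were called higher. HOXA9 ran from 1.82 to 5.63 FPKM in SSAT (median 2.18) and from 0 to 0.311 FPKM in OAT (median 0.0306). Its depots were far apart, although SSAT 1 was well above the other SSAT libraries, and the log2 fold change was 4.06 ± 0.22 (limma adjusted p = 0.00253, 0.0193 without animals 1 and 4). HOXA10 ran from 0.186 to 0.73 FPKM in SSAT and was listed at 0 in all 6 OAT libraries, so no fold is given (limma adjusted p = 0.0184). HOXC4 ran from 1.49 to 2.56 FPKM in SSAT (median 1.95) and from 0.373 to 0.782 FPKM in OAT (median 0.562), again without overlap, and rose by 1.65 on the log2 scale (limma adjusted p = 0.0319).

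The other HOX genes did not pass with 6 pairs. HOXC8 and HOXC9 had medians of 3.83 FPKM in SSAT and 0.99 FPKM in OAT, and of 9.19 FPKM in SSAT and 1.54 FPKM in OAT, with every SSAT library above every OAT library; their log2 fold changes were 2.41 ± 0.50 and 2.98 ± 0.69 (limma adjusted p of 0.0743 and 0.0894), and both passed without animals 1 and 4 (0.0333 and 0.0203). HOXC6 had a log2 fold change of 1.72, HOXD8 of 1.70 and HOXB7 of 1.18. HOXA5 differed from the rest: its medians were 2.51 FPKM in SSAT and 3.47 FPKM in OAT, the depots overlapped, and its log2 fold change was 0.16 ± 0.42 with all animals and -0.51 without animals 1 and 4, so no direction can be given.

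Factors of the visceral mesoderm included genes lower in SSAT. Of 18 tested, 4 were lower in SSAT (3 without animals 1 and 4) and none was higher, and the median log2 fold change was -0.36. TCF21, a basic helix-loop-helix factor of visceral mesenchyme, ran from 0 to 0.309 FPKM in SSAT (median 0.0422) and from 1.98 to 5.31 FPKM in OAT (median 3.92). BARX1, a homeobox factor of the stomach wall in mice, ran from 0.104 to 0.232 FPKM in SSAT (median 0.144) and from 0.435 to 4.15 FPKM in OAT (median 3.16). Neither overlapped between the depots. TCF21 fell by 4.41 and BARX1 by 3.15 on the log2 scale (SE 0.48 and 0.45, limma adjusted p of 0.0184 and 0.0382), and both also passed without animals 1 and 4 (0.00868 and 0.0171). ISL1, a LIM homeobox factor, was barely detected in SSAT, where its highest library held 0.0423 FPKM, against 0.0633 to 1.54 FPKM in OAT (limma adjusted p = 0.0431). MEIS1, a HOX cofactor, had medians of 5.02 FPKM in SSAT and 11.3 FPKM in OAT and did not pass (limma adjusted p = 0.0579).

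WT1, the zinc-finger factor of mesothelium that in mice marks visceral fat progenitors, lay in a run of 5 adjacent gene models, 3 of them with no symbol, and all 5 were lower in SSAT. The model named WT1 ran from 0 to 0.0283 FPKM in SSAT (median 0.0131) and from 0.50 to 2.97 FPKM in OAT (median 0.852). A second model, wt1-b, whose closest protein match is a frog WT1, was listed at 0 in all 6 SSAT libraries and ran from 2.11 to 14.8 FPKM in OAT. Thus no SSAT library reached any OAT library. The log2 fold change of WT1 was -3.39 ± 0.37 (limma adjusted p = 0.0184, 0.0289 without animals 1 and 4), and wt1-b had an adjusted p of 0.00561, with no fold given against 0. Of the 21 mesothelial markers tested, WT1 was the only one called. The defining markers BNC1 and MSLN, named after their values were seen, were at 0 in all SSAT libraries and at 41.1 and 9.64 FPKM in OAT 1, but at 0 to 3.22 FPKM and 0 to 0.742 FPKM in OAT of animals 2, 3, 5 and 6, where WT1 ran from 0.579 to 2.27 FPKM. The part of mesothelium in the WT1 result was not tested.

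Matrix genes were called in both directions. Collagen chains had a median log2 fold change of 1.03 over 35 tested, which was 0.16 without animals 1 and 4, with 2 called higher in SSAT and 2 lower, and 1 higher and 0 lower without those animals. VIT, coding for the matrix protein vitrin, showed the largest rise of all named genes: it ran from 48.4 to 334 FPKM in SSAT (median 145) and from 0.63 to 2.43 FPKM in OAT (median 1.4). No library of either depot came near the other depot, and the log2 fold change was 6.61 ± 0.41 (limma adjusted p = 0.00321, 0.02 without animals 1 and 4). FMOD, the collagen-binding proteoglycan fibromodulin, ran from 169.6 to 1263 FPKM in SSAT (median 484) and from 25.6 to 127 FPKM in OAT (median 33.3). All SSAT libraries lay above all OAT libraries, and OAT 1 was far above the other OAT libraries; FMOD rose by 3.57 on the log2 scale (SE 0.35, limma adjusted p = 0.0135, 0.0518 without animals 1 and 4). VCAN, the large proteoglycan versican, ran from 1034 to 7109.6 FPKM in SSAT (median 2796) and from 239.7 to 540.4 FPKM in OAT (median 416); the depots did not overlap, but the log2 fold change of 2.75 ± 0.50 did not pass (limma adjusted p = 0.0581).

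Of the 4 called collagen chains, COL8A2 alone was also called without animals 1 and 4. COL21A1, a fibril-associated collagen, ran from 7.4 to 23 FPKM in SSAT (median 12.8) and from 1.45 to 2.65 FPKM in OAT (median 2.18), and rose by 2.67 on the log2 scale (limma adjusted p = 0.0184). COL8A2, a short-chain network collagen at low level, had medians of 0.403 FPKM in SSAT and 0.0473 FPKM in OAT and rose by 1.89 (limma adjusted p = 0.0364). Both were free of overlap. COL4A3 and COL4A4, which join in the specialised basement membrane of kidney and lung, were lower in SSAT: COL4A3 ran from 0 to 0.811 FPKM in SSAT (median 0.284) and from 0.931 to 16.3 FPKM in OAT (median 2.17), and COL4A4 ran from 3.02 to 31.8 FPKM in SSAT (median 11.6) and from 13 to 142 FPKM in OAT (median 37.7). COL4A4 overlapped between depots although it was lower in SSAT within each animal, and the log2 fold changes were -2.92 ± 0.37 and -1.95 ± 0.29 (limma adjusted p of 0.0272 and 0.0402).

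Fibroblast and adipose progenitor markers had 4 of 21 called higher in SSAT and none lower, with a median of 1.28; without animals 1 and 4, only ENTPD2 was called and the median was 0.94. THY1, a surface glycoprotein of fibroblasts, ran from 274 to 435 FPKM in SSAT (median 305) and from 40.6 to 189.8 FPKM in OAT (median 93.7), and its log2 fold change was 1.82 ± 0.28 (limma adjusted p = 0.0424). S100A4, a calcium-binding protein of fibroblasts, ran from 30.0 to 64.6 FPKM in SSAT (median 38) and from 0.512 to 14 FPKM in OAT (median 1.98), a log2 fold change of 4.17 ± 0.46 (limma adjusted p = 0.0184). Neither gene overlapped between depots. ENTPD2, an ectonucleotidase of stromal cells, rose by 2.16 on the log2 scale and overlapped only through SSAT 1, which held 6.97 FPKM. CXCL14, a chemokine of stromal cells, ran from 89.6 to 328 FPKM in SSAT (median 131) and from 5.27 to 50.8 FPKM in OAT (median 16.2) with no overlap, and rose by 3.25 (limma adjusted p = 0.0431). LOXL4, a lysyl oxidase that cross-links collagen, rose by 1.19. The proteoglycan decorin, DCN, had medians of 205 FPKM in SSAT and 59.4 FPKM in OAT but did not pass (limma adjusted p = 0.0862). The 10 small leucine-rich proteoglycans had 1 call and a median of 1.62, and the 12 hyaluronan and large proteoglycan genes had none and a median of 0.99.

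Among secreted and signalling genes the widest gap was that of DLK1, an imprinted transmembrane protein that holds back adipocyte differentiation. DLK1 ran from 0 to 0.121 FPKM in SSAT (median 0) and from 5.22 to 85.8 FPKM in OAT (median 61.7). It was listed at or near 0 in each SSAT library and was high in OAT, with OAT 1 (5.22 FPKM) far below the other 5; the log2 fold change was -8.40 ± 0.47 (limma adjusted p = 0.00253, 5.2e-04 without animals 1 and 4). IGF1, the insulin-like growth factor, ran from 79.4 to 164 FPKM in SSAT (median 101) and from 167 to 374 FPKM in OAT (median 264), without overlap, and fell by 1.23 on the log2 scale (SE 0.14, limma adjusted p = 0.0203). PEG10, another imprinted gene, ran from 91.3 to 137 FPKM in SSAT (median 126) and from 45.8 to 74.8 FPKM in OAT (median 50.7), and rose by 1.11 (limma adjusted p = 0.021). Of the 24 genes of the IGF system and imprinted growth, these were the 3 called.

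Of 42 BMP and TGF-beta pathway genes, 2 were called, both higher in SSAT, of which BMPR1B was also called without animals 1 and 4. The ligand BMP5 ran from 17.3 to 39 FPKM in SSAT (median 27.8) and from 0.378 to 4.06 FPKM in OAT (median 1.34). The receptor BMPR1B was lowly expressed, with medians of 0.421 FPKM in SSAT and 0.0373 FPKM in OAT. No library overlapped for either gene, and the log2 fold changes were 4.19 ± 0.60 and 1.87 ± 0.20 (limma adjusted p of 0.0382 and 0.0177). Of 42 WNT pathway genes none was called: the ligand WNT11 and the antagonist DKK2 had log2 fold changes of 1.49 and 2.46 with no overlap (limma adjusted p of 0.0591 and 0.0593), and the WNT enhancer RSPO3 of -1.54 (limma adjusted p = 0.0934). Of 64 axon guidance genes none was called either, including SLIT2, whose medians were 11 FPKM in SSAT and 54.5 FPKM in OAT without overlap (log2 fold change -2.43 ± 0.43, limma adjusted p = 0.0569); SLIT2 passed in the fit of 34 libraries (1.9e-04). The retinoid genes had no call among 18: CYP26B1, which degrades retinoic acid, had a log2 fold change of 2.85 and ALDH1A2, which makes it, of -2.45 (limma adjusted p of 0.0898 and 0.0932, and of 0.0396 and 0.02 without animals 1 and 4).

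Secreted factors of adipose tissue had 2 of 21 called, both higher in SSAT, and none without animals 1 and 4, where both had a limma adjusted p of 0.0584. C1QTNF1 ran from 72 to 146 FPKM in SSAT (median 98.9) and from 12 to 39.2 FPKM in OAT (median 18.1), and C1QTNF7 ran from 32.8 to 75.5 FPKM in SSAT (median 50.5) and from 1.96 to 21.2 FPKM in OAT (median 7.98). Both belong to the family of adiponectin-like proteins, both were free of overlap, and they rose by 2.31 and 2.63 on the log2 scale (limma adjusted p of 0.0184 and 0.0319). ACKR3, a receptor that scavenges the chemokine CXCL12, ran from 50.5 to 81 FPKM in SSAT (median 70.8) and from 12.3 to 38.2 FPKM in OAT (median 20.1), and rose by 1.76 (limma adjusted p = 0.0209). ANGPTL5, an angiopoietin-like protein, rose by 3.80, CRB1, an apical polarity protein, by 4.10 and ANXA8, an annexin, by 3.93; in all these genes every SSAT library exceeded every OAT library.

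The complement protein C7 ran from 8.05 to 239.7 FPKM in SSAT (median 168) and from 99.3 to 904 FPKM in OAT (median 568). SSAT 1 and OAT 1 were each the lowest of their depot by a wide margin, so the depots overlapped, but C7 was lower in SSAT in 6 of 6 animals, with a log2 fold change of -2.12 ± 0.28 (limma adjusted p = 0.0319, 0.0171 without animals 1 and 4). TRPM2, a calcium-permeable channel also found in immune cells, ran from 81.6 to 315 FPKM in SSAT (median 109) and from 406 to 3624 FPKM in OAT (median 1122). OAT 4 was the highest library at 3624 FPKM and OAT 1 followed at 1725 FPKM, both rich in lymphoid transcripts, while OAT of animals 2, 3, 5 and 6 ran from 406.1 to 1311 FPKM, still above each SSAT library. The log2 fold change of TRPM2 was -3.16 ± 0.46 (limma adjusted p = 0.0382) and was -2.61 without animals 1 and 4 (0.0742); the part of lymphoid cells in it was not tested. PRLR, the prolactin receptor, ran from 0.0559 to 1.76 FPKM in SSAT (median 0.373) and from 0.377 to 14.7 FPKM in OAT (median 2.98), overlapping between depots, and had a log2 fold change of -2.72 ± 0.43 (limma adjusted p = 0.0481).

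The other large falls were in membrane and chromatin proteins. TMEM132C, a transmembrane protein, ASXL3, a Polycomb-associated factor, SLC24A3, a sodium-calcium exchanger, PTK7, a receptor of planar cell polarity, and SLCO4A1, an organic anion transporter, had log2 fold changes of -3.13, -2.99, -2.67, -2.42 and -2.29. Among these SLC24A3 and SLCO4A1 overlapped between depots. GFRA3, a co-receptor of the GDNF family, ran from 0.159 to 0.576 FPKM in SSAT (median 0.26) and from 0.612 to 2.39 FPKM in OAT (median 1.57) and fell by 1.92 on the log2 scale (limma adjusted p = 0.0414). Of the 12 largest falls, 8 were also called without animals 1 and 4 and 11 in the fit of 34 libraries, SLCO4A1 being the exception (0.0901); of the 12 largest rises, these counts were 8 and 12.

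Lipid genes were rarely called in the paired comparison, and the medians of the adipocyte identity and the lipolysis lists changed sign without animals 1 and 4. None of 24 adipocyte identity genes passed; 13 were positive and 11 negative, with a median log2 fold change of 0.13. Without animals 1 and 4, 1 was positive and 23 negative, and 4 were called lower in SSAT. The median was then -1.10, against -0.10 over all gene models. OAT 1 and OAT 4 had been set apart in part by their low sums of this same list. Lower values in SSAT without them are therefore partly built in, here and for the lipid genes below, and are no independent test. DGAT2, which makes triglyceride from diglyceride, ran from 414.1 to 614.9 FPKM in SSAT and from 1479 to 4134 FPKM in OAT of the 4 animals, whereas OAT 1 and OAT 4 held 22.7 and 71.2 FPKM. ACVR1C, an activin receptor of adipocytes, ran from 293.9 to 434.8 FPKM in SSAT and from 1139 to 1972 FPKM in OAT of the 4 animals, against 36.6 and 103.2 FPKM in OAT 1 and OAT 4. Thus within the 4 animals both genes were lower in SSAT without overlap, and in animals 1 and 4 they were higher in SSAT. The share of all gene models without overlap in those 4 pairs was not computed. The log2 fold change of DGAT2 was -0.36 ± 0.86 with all 6 pairs (limma adjusted p = 0.811) and -1.94 with 4 (0.047), and that of ACVR1C was -0.47 ± 0.77 (0.725) and -1.93 (0.0213); both were named after their values were seen. RXRG, a retinoid X receptor, and ACSL1, which activates fatty acids, were the other calls, RXRG also named after its value was seen.

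Of 28 glycerolipid and lipid droplet genes 17 were negative with 6 pairs and 26 with 4 (medians -0.33 and -0.58), with no call with 6 pairs and 3 lower in SSAT with 4. GPAT3, an acyltransferase of the first step, ran from 3.28 to 5.55 FPKM in SSAT and from 24.6 to 66.98 FPKM in OAT of the 4 animals, against 1.69 and 2.84 FPKM in OAT 1 and OAT 4. The log2 fold change was -1.83 ± 0.76 with all pairs (limma adjusted p = 0.203) and -3.16 with 4 (0.047). LIPE, the hormone-sensitive lipase, changed sign: it was 0.31 with all pairs and -1.07 with 4, and passed in neither (limma adjusted p of 0.813 and 0.137). Of 27 lipolysis and adrenergic genes (medians 0.02 with 6 pairs and -0.65 with 4), PRKAR2B, a regulatory subunit of protein kinase A, was called: it ran from 10.9 to 23.5 FPKM in SSAT (median 18.7) and from 25.3 to 72.5 FPKM in OAT (median 36.7), without overlap, and fell by 1.18 on the log2 scale (SE 0.13, limma adjusted p = 0.019, 0.046 with 4 pairs). The beta-adrenergic receptors ADRB1 and ADRB3 had medians of 1.32 FPKM in SSAT and 9.52 FPKM in OAT, and of 2.5 FPKM in SSAT and 11.6 FPKM in OAT, but did not pass (0.112 and 0.207). The desaturases FADS1 and FADS2 had log2 fold changes of -1.61 and -1.99 without overlap (limma adjusted p of 0.0514 and 0.0607), and SCD, which makes oleic acid, of 1.63 (0.132).

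**Figure D4:**
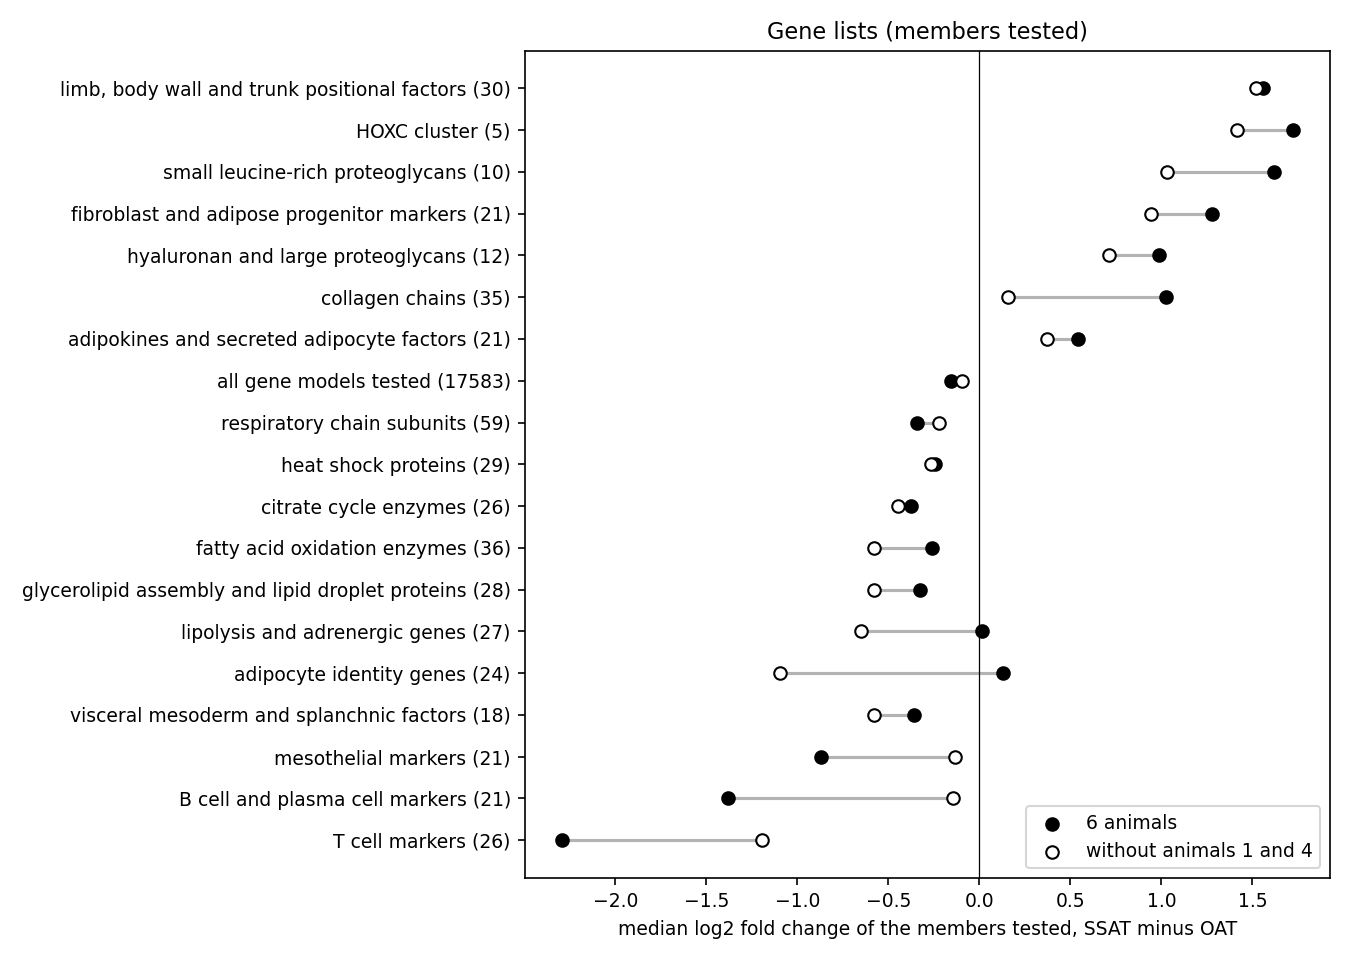
Median log2 fold change (SSAT over OAT) of each gene list with all 6 pairs and without animals 1 and 4 (horizontal axis; filled and open points), with the number of members tested in brackets and a line at 0. The limb, body wall and trunk, HOXC, fibroblast and proteoglycan lists are positive under both, whereas adipocyte identity genes are at 0.13 with 6 pairs and at -1.10 with 4.

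Mitochondrial genes had no call. Over all 17583 gene models, 11321 were negative with 6 pairs and 10578 with 4, with medians of -0.16 and -0.10. Of 26 citrate cycle enzymes 23 were negative with 6 pairs and 26 with 4, with medians of -0.38 and -0.45, but none was called in either. Of 59 respiratory chain subunits 56 were negative with 6 pairs and 48 with 4 (medians -0.34 and -0.22), and of 36 fatty acid oxidation enzymes 30 and 34 were negative (medians -0.26 and -0.58), again with no call. SDHA, a subunit of succinate dehydrogenase, had medians of 103 FPKM in SSAT and 171 FPKM in OAT (log2 fold change -0.74 ± 0.15, limma adjusted p = 0.0722) and SUCLG2, a subunit of succinate-CoA ligase, of 22.6 FPKM in SSAT and 35.6 FPKM in OAT (-0.69 ± 0.12, 0.0581). Both passed in the fit of 34 libraries (0.0146 and 0.0155). The glycolytic and lipid enzymes LDHB, GPD1 and HADHA had log2 fold changes of -0.72, -0.49 and -0.38 with 6 pairs and did not pass (limma adjusted p of 0.116, 0.549 and 0.366). Within animals 2, 3, 5 and 6 none of them overlapped between depots. Depots separate more easily with 4 pairs than with 6, and the share over all gene models was not computed there. In these animals GPD1 ran from 442.2 to 734.3 FPKM in SSAT and from 1149 to 2333 FPKM in OAT. HADHA ran from 785.9 to 1151 FPKM in SSAT and from 1330 to 1893 FPKM in OAT. In OAT 1 and OAT 4, GPD1 was at 180.4 and 199.5 FPKM and HADHA at 699.7 and 660.9 FPKM. No gene of the 15 thermogenic and beige fat genes was called. UCP1, the uncoupling protein of brown fat, was at most 0.0316 FPKM in SSAT and reached 1.66 FPKM in OAT, PRDM16 had medians of 8.29 FPKM in SSAT and 11.6 FPKM in OAT, and TMEM26, a beige marker, of 19.3 FPKM in SSAT and 47.1 FPKM in OAT; all 3 overlapped between depots.

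Heat shock proteins had 1 of 29 called, and none without animals 1 and 4. HSPH1, a co-chaperone of HSP70, ran from 42.2 to 111 FPKM in SSAT (median 69) and from 72.1 to 456 FPKM in OAT (median 231), overlapping. Its log2 fold change was -1.71 ± 0.26 (limma adjusted p = 0.0412). The highest libraries of HSPH1 were OAT 1 and OAT 4, at 456.2 and 401.7 FPKM. HSPD1, the mitochondrial chaperonin, ran from 170.3 to 337 FPKM in SSAT (median 278) and from 431 to 669.9 FPKM in OAT (median 554). Each SSAT library of HSPD1 was below each OAT library, but it did not pass with 6 pairs (log2 fold change -0.996 ± 0.20, limma adjusted p = 0.0674) and passed in the fit of 34 libraries (0.00139). HSPA4 and HSP90AA1 likewise did not overlap, at log2 fold changes of -0.60 and -0.77, and did not pass (0.0624 and 0.072).

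The T cell, NK, B cell and MHC class II lists had negative medians and no paired call. The median log2 fold change was -2.29 over 26 T cell markers, -1.99 over 14 NK and cytotoxic markers, -1.38 over 21 B cell and plasma cell markers and -0.97 over 7 MHC class II genes, and without animals 1 and 4 these were -1.19, -0.79, -0.15 and -0.38. CD3D, a chain of the T cell receptor complex, ran from 3.2 to 17.3 FPKM in SSAT (median 7.4) and from 4.28 to 1117 FPKM in OAT (median 51.5). Its depots overlapped and its log2 fold change was -3.09 ± 0.85 (limma adjusted p = 0.117), with a value of -1.65 without animals 1 and 4. PAX5, the B cell factor, ran from 0.0192 to 3.85 FPKM in SSAT (median 0.391) and from 0.487 to 398 FPKM in OAT (median 8.69), also with overlap (log2 fold change -3.87 ± 1.42, limma adjusted p = 0.172). The fit of all 36 libraries called 17 of the 26 T cell, 8 of the 14 NK and 4 of the 21 B cell markers lower in SSAT. Over all gene models this fit called 15.5% lower, so the B cell count was near the general share. The fit without OAT 1 and OAT 4 called 0, 1 and 0, against 4.83% of all gene models. The 23 macrophage and monocyte markers had no paired call, with a median of -0.43 and, without animals 1 and 4, of 0.46.

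The other depots were used to place these genes. Of the 12 largest rises, 7 had their highest median of all 6 depots in SSAT and 10 their lowest in OAT. Of the 12 largest falls, 7 had their highest median in OAT and 6 their lowest in SSAT. Because these genes were chosen by their SSAT-OAT difference, such ranks are partly built in. The share over all gene models was not computed. TBX15 had medians of 67.1 in SSAT, 0.889 in OAT, 78.1 in BSAT, 65 in IAT, 30.3 in PCAT and 1.59 FPKM in PRAT, so the low libraries were those of omental and perirenal fat. VIT had 145 in SSAT, 1.4 in OAT, 13.8 in BSAT, 17.8 in IAT, 3.65 in PCAT and 2.72 FPKM in PRAT, with the highest median in SSAT, although IAT 1, IAT 5 and BSAT 4 (74, 83.8 and 48.6 FPKM) were above the lowest SSAT library (48.4 FPKM). DLK1 had 0 in SSAT, 61.7 in OAT, 0 in BSAT, 6.13 in IAT, 72.6 in PCAT and 36.1 FPKM in PRAT. Its median was 0 in sternum and back fat and highest in the 3 visceral depots. BARX1 was near its floor outside the omentum, with 0.144 in SSAT, 3.16 in OAT, 0.117 in BSAT, 0.255 in IAT, 0.127 in PCAT and 0.29 FPKM in PRAT. HOXA9 had 2.18 in SSAT, 0.0306 in OAT, 3.87 in BSAT, 4.2 in IAT, 0.0972 in PCAT and 3.86 FPKM in PRAT, low in omental and pericardial fat and not in perirenal fat. SLIT2 had 11 in SSAT, 54.5 in OAT, 4.18 in BSAT, 5.76 in IAT, 12.9 in PCAT and 12.5 FPKM in PRAT, highest in the omentum.

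**Figure D5:**
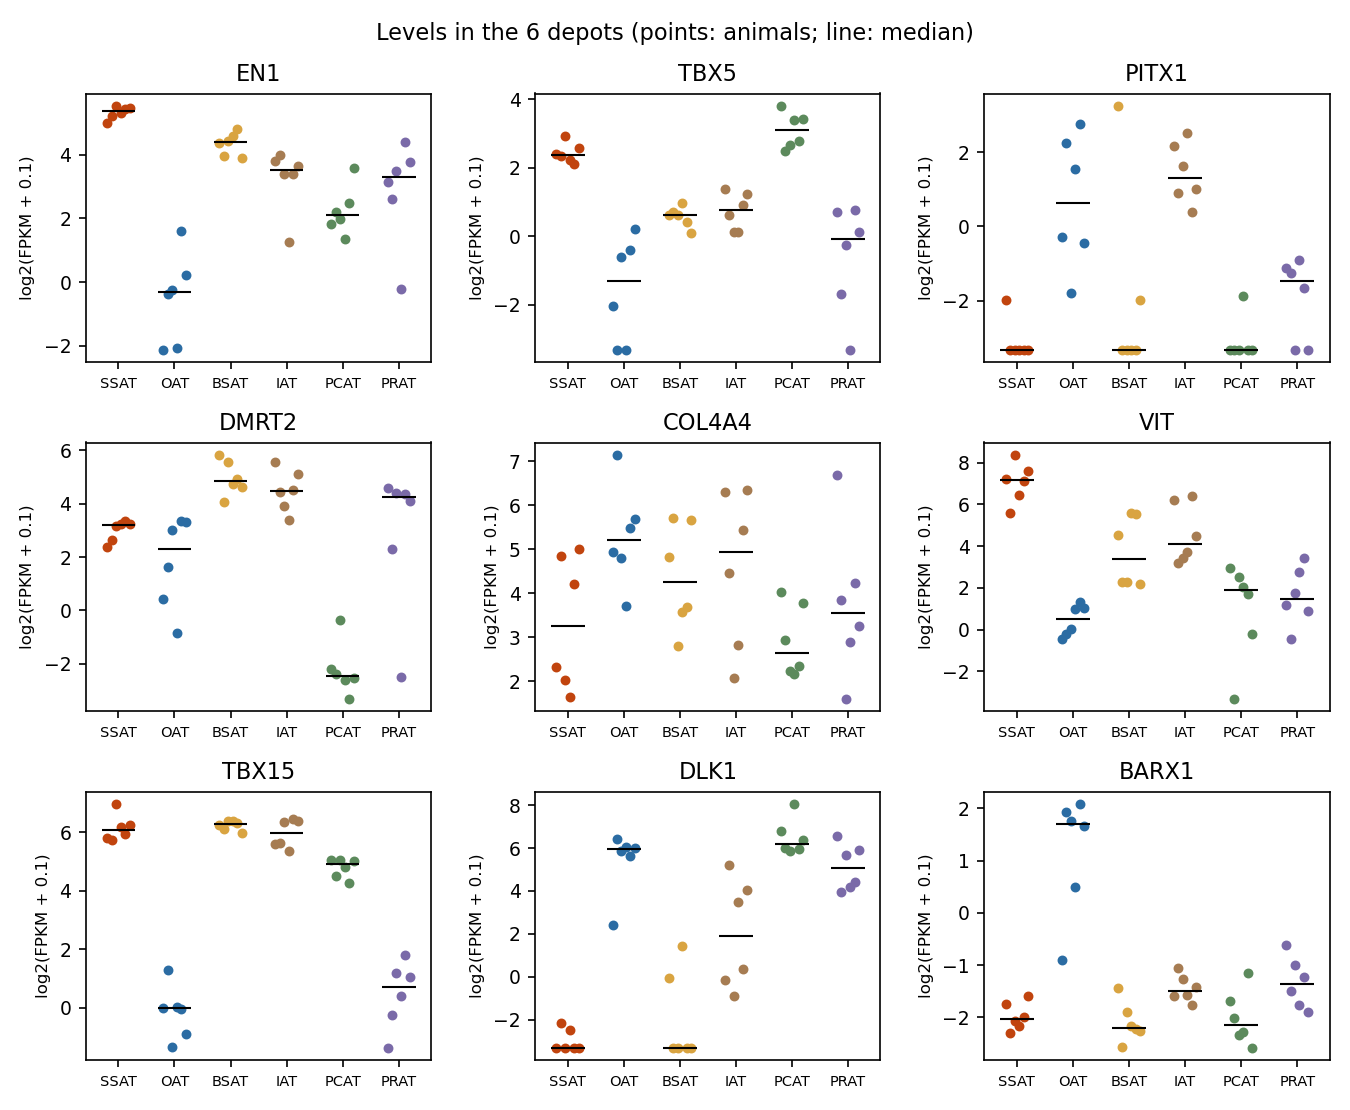
Expression on the log2(FPKM + 0.1) scale of 9 genes in every library of the 6 depots, ordered SSAT, OAT, BSAT, IAT, PCAT and PRAT, with the median as a line and 1 point per animal. Every SSAT library of EN1 is above all libraries of the other depots, and 5 of 6 OAT libraries of BARX1 are above all those of the other depots.

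Whether the SSAT-OAT difference went beyond the difference of the other subcutaneous and visceral depots was tested within each animal, as SSAT minus OAT less the mean of BSAT and IAT minus the mean of PCAT and PRAT. It passed for 5 gene models (0.0284%), in 6 of 6 animals each, and 1174 were at an unadjusted p under 0.05. EN1 differed by 5.83 between SSAT and OAT and by 1.24 between the other depots, a difference of 4.59 ± 0.32 on the log2 scale (limma adjusted p = 0.00608). TBX5 differed by 4.00 and by -0.59, a difference of 4.58 ± 0.36 (limma adjusted p = 0.00996); its highest median was in pericardial fat at 8.6 FPKM, beside 5.03 FPKM in SSAT. For the other 3 this difference was negative. PITX1, the hindlimb homeobox factor, was at 0 in the median SSAT library and at 1.76 FPKM in OAT, but at 2.44 FPKM in IAT (difference -5.99 ± 0.42, limma adjusted p = 0.00608). Back fat was also low apart from BSAT 1 (9.41 FPKM), with at most 0.155 FPKM in its other libraries. PITX1 was at 0 in every SSAT library but SSAT 1, so the size of its difference depends on the pseudocount. DMRT2, a factor of the somites, had 9.15 in SSAT, 5.45 in OAT, 28.6 in BSAT, 22.1 in IAT, 0.0816 in PCAT and 18.9 FPKM in PRAT (difference -3.21 ± 0.30, limma adjusted p = 0.031). COL4A4 was lower in SSAT than in OAT and higher in the other subcutaneous than the other visceral depots (difference -3.09 ± 0.22, limma adjusted p = 0.00608). Without animals 1 and 4 the 5 differences were 4.25, 4.20, -5.87, -3.54 and -3.25, and none passed (limma adjusted p from 0.111 to 0.119). Their sign could not change there, since it was the same in 6 of 6 animals. PRAT 2, rich in lymphoid transcript, stayed in that test. None passed without animal 4 or without animal 6, and 1 passed without animal 3.

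No gene model was called for a difference between females and males in SSAT minus OAT (limma, 3 animals a sex), with 148 at an unadjusted p under 0.05. In simulated data of the same size, 50 gene models were changed at each step, with independent noise in each library. A difference of 1 on the log2 scale was recovered in 0% of them by this test and one of 4 in 70%. Thus only large differences between the sexes were detectable in such data. In a like simulation the paired comparison recovered 42% of gene models changed by 1 and 96% of those changed by 4. No simulated library stood apart as OAT 1 and OAT 4 did, so recovery in the real data may differ.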

How the data were processed

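RNA of 6 fat depots from 6 buffaloes was sequenced (36 libraries). Per the labels and the study's methods, the authors trimmed reads with Fastp, aligned them with HISAT2 2.2.1 to their own river buffalo genome, assembled transcripts with StringTie 2.1.4 and deposited FPKM values per gene model. The study lists read totals per library, which were not used here; the table itself holds no counts, and FPKM sums over the 12 libraries ran from 811654 to 886298. The labels name a TruSeq RNA kit and the study's methods an rRNA-depleted library, so which RNA classes were captured is not settled. Symbols rest on the closest protein match, and 6773 of 23032 gene models have none; 1238 symbols are on more than 1 gene model, and the most abundant model then stood for the symbol. Read counts per gene were not analysed here.

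Gene models with a mean above 0.1 FPKM over the 12 SSAT and OAT libraries were kept. Values were analysed as log2(FPKM + 0.1) in R 4.3.3 with limma 3.58.1, with animal as a block, moderated variances following the mean, and Benjamini-Hochberg adjustment over all 17583 gene models (threshold 0.05). Titles tie equal numbers to 1 animal, which gives the pairing; such pairs' deviations from the group means correlated by 0.095 on average, against -0.018 for other pairs. Each library is 1 tissue piece of 1 animal. The difference from the other depots and the sex difference were fitted on 1 value per animal. The fits were tested on simulated data. The genes named were the 12 largest rises and 12 largest falls with a symbol, the same sign in 6 animals and a mean of at least 1 FPKM, up to 5 members of each of 53 gene lists with the smallest p, the HOX genes and the genes that the study names; any other is said to be chosen after its value was seen. Some genes that this rule names are not reported here. The members and lists were chosen with earlier results of these data known. Alternatives changed the pseudocount (0.01, 1), the filter (none, 1, 10), the scaling, the block, the libraries, a lymphoid covariate and the cutoffs; the fit of 34 libraries was chosen after seeing the data. Figures were drawn with matplotlib 3.10.9.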

Additional observations from a re-analysis of the deposited data

Results flagged for a closer look

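Single libraries stood far from the other 5 of their depot in 20 of 214 groups of 6 libraries checked (9.35%), where chance flags about 1 in 20. OAT 1, which is poor in adipocyte transcript, was that library in 8 of these and SSAT 1 in 7. In OAT 1, DLK1 was at 5.22 FPKM against 49.3 to 85.8 in the other 5, SLC24A3 at 1.53 against 10.4 to 25.8, C7 at 99.3 against 547.3 to 903.6, PRDM16 at 2.41 against 8.54 to 15.6, DKK2 at 1.95 against 9.62 to 17.9 and RSPO3 at 0.386 against 1.89 to 4.43. FMOD in OAT 1 was instead high, at 126.9 FPKM against 25.6 to 34.6, and its summed mesothelial markers were 2014 FPKM against 291.1 to 510.3.

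In SSAT 1, HOXA9 was at 5.63 FPKM against 1.82 to 2.53 in the other 5, SERPINB9 at 26.1 against 11.2 to 14.1, and PITX1 at 0.155 against 0. ENTPD2 in SSAT 1 was at 6.97 FPKM against 27.9 to 41.5, C7 at 8.05 against 132.0 to 239.7, HSPD1 at 170.3 against 277.6 to 337.4, and the summed B cell markers at 131.2 against 190.6 to 223.6. Elsewhere, PRKAR2B was at 72.5 FPKM in OAT 3 against 25.3 to 37.1, TMEM132C at 0 in SSAT 5 against 0.263 to 0.617, TRHDE at 0.324 in SSAT 4 against 0, UCP1 at 0.0316 in SSAT 2 against at most 0.00727, and ERMN at 0.0674 in OAT 5 against 0.

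The SSAT-OAT difference departed from that of the other depots, by the test of the difference itself, for EN1 (4.59), TBX5 (4.58), PITX1 (-5.99), DMRT2 (-3.21) and COL4A4 (-3.09), in log2 units.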

How the results depend on the processing

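The count of gene models higher in SSAT was 93. It was 55 with no filter, 36 at a mean of at least 10 FPKM, 325 with no replicate block, 1146 with all 36 libraries, 388 with 34 libraries, 56 without animals 1 and 4, 10 with a lymphoid score as covariate, and 268 at an unadjusted p under 0.05 with a log2 fold change of at least 1.5; leaving out 1 animal gave 12 to 62. The count lower in SSAT was 50. It was 31 with a pseudocount of 1, 20 with no filter, 31 at a mean of at least 1 and 15 at a mean of at least 10 FPKM, 313 with no replicate block, 2725 with all 36 libraries, 849 with 34, 92 without animals 1 and 4, 6 with the covariate and 473 at the unadjusted cutoffs; leaving out 1 animal gave 4 to 38. The count of the comparison with the other depots, 5, was 0 to 6 with 1 animal left out and 0 without animals 1 and 4. The count between sexes stayed at 0 in every setting run.

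Of 1777 alternative values of 102 named genes, 1320 kept their direction and side of the threshold, 356 lost and 87 gained a call, and 14 changed sign. All 59 called named genes kept their sign, and 50 lost their call in at least 1 setting. Where a setting only left out animals the sign could not change, since each called gene had the same sign in all 6 animals. The sign changes were in 4 uncalled genes. HOXA5 (0.16) was -0.28 without animal 1 to 0.33 without animal 3, -0.51 without animals 1 and 4, -0.72 with the covariate and -0.39 with 34 libraries. LIPE (0.31) was -0.23 without animal 1, -0.25 without animal 4 (highest 0.81, without animal 3), -1.07 without both, -1.26 with the covariate and -0.81 with 34 libraries. PRDM16 (-0.08) was 0.087 after quantile normalization and -0.57 to 0.11 with 1 animal left out (above 0 without animal 2, 3 or 4), and DGAT2 (-0.36) was 0.12 without animal 3 (lowest -1.16, without animal 1). The causes were not tested. Since the table holds FPKM and no counts, no counting error is given for values near 0.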

Other observations

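Several genes outside the groups above differed as clearly, and were chosen after their values were seen. PPL, which codes for the cell junction protein periplakin, ran from 1106 to 2379 FPKM in SSAT (median 2026) and from 249 to 567 FPKM in OAT (median 352), a log2 fold change of 2.29 ± 0.20 (limma adjusted p = 0.00818). CD109, a surface protein that binds TGF-beta, ran from 238 to 741 FPKM in SSAT (median 444) and from 13.6 to 90.6 FPKM in OAT (median 47.9), and rose by 3.39 on the log2 scale. TGM2, a transglutaminase that cross-links proteins, ran from 7.61 to 12.9 FPKM in SSAT (median 10.4) and from 29 to 64.2 FPKM in OAT (median 47.9), and SERPINB9, an inhibitor of granzyme B, ran from 11.2 to 26.1 FPKM in SSAT (median 12.6) and from 32.1 to 67.1 FPKM in OAT (median 35.4). Both were lower in every SSAT library than in any OAT library, with log2 fold changes of -2.10 ± 0.17 and -1.49 ± 0.12 (limma adjusted p of 0.0065 and 0.00605). TRHDE, which degrades thyrotropin-releasing hormone, was detected in 1 SSAT library at 0.324 FPKM and ran from 0.665 to 1.8 FPKM in OAT. All 5 were also called without animals 1 and 4.

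Called gene models were in part neighbours. In the order of the authors' gene models there were 17 pairs of adjacent called models, and both members had the same sign in all 17. They include the pairs of the WT1 run and a pair of models both named ASXL3. Such models may be parts of 1 gene, so their signs are not independent. The number of adjacent pairs to be met by chance was not computed. Of the 17 pairs, 5 were neighbours of the same names in the RefSeq gene order as well. BMP5 with COL21A1, GALNT5 with ERMN, S100A4 with S100A5 and EPB41L4B with PTPN3 were all higher in SSAT. COL4A3 with COL4A4 were both lower. GALNT5, a mucin-type glycosyltransferase, ran from 1.4 to 6.28 FPKM in SSAT (median 2.2) and from 0 to 0.301 FPKM in OAT (median 0.178). ERMN, a cytoskeletal protein of myelin-forming cells, was far lower, with medians of 0.264 FPKM in SSAT and 0 FPKM in OAT. S100A5 had medians of 1.06 FPKM in SSAT and 0.0417 FPKM in OAT, EPB41L4B of 52 FPKM in SSAT and 21 FPKM in OAT and PTPN3 of 19.6 FPKM in SSAT and 5.26 FPKM in OAT. Whether reads of 1 gene of a pair reached the other in the authors' assembly was not tested.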
